A study of Rattus norvegicus with 6 samples.

Results

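Fragments of the nuclear alanine and cysteine tRNAs were described in small RNA libraries from rat hippocampus. All listed fragments whose name carries Ala or Cys and that are not mitochondrial were taken, which gave 50 of the 615 listed fragments. They comprise 25 of Ala-AGC, 10 of Ala-CGC, 5 of Ala-TGC and 10 of Cys-GCA, where the letters are the anticodon. The libraries came from the hippocampus of Sprague-Dawley rats aged 6 to 8 weeks, 3 given saline and 3 given nicotine. The labels number the rats but give no dose, route, duration or sex, and the tables hold no mRNA by which the tissue could be checked. Values are CPM, reads scaled to a common library total. The total behind the CPM, recovered from the values, was 374763, 154414 and 206221 reads in saline libraries 1, 2 and 3 and 90828, 122282 and 128694 in nicotine libraries 1, 2 and 3. It was smaller in every nicotine library than in any saline one, so treatment and this total cannot be told apart. Which reads the total counts is not given in the sources used here, so it may differ from the sequencing depth. The value of 1 read was 2.67 to 11.01 CPM. In bulk tissue, fewer cells of a type and less RNA per cell cannot be told apart either. The 50 fragments held 8998 of the 635741 listed reads of the 6 libraries.

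Cells cut tRNAs into several kinds of small RNA. Long 5' fragments, also called tiRNA, arise when a nuclease such as angiogenin cuts the anticodon loop. In human cells the long 5' fragments of alanine and cysteine tRNAs are known for a run of G at their first bases. This run lets them stack into G-quadruplexes, displace the cap-binding complex from mRNA and slow translation. Short 3' fragments (tRF-3) are cut in the T loop and end in the CCA tail, where the amino acid is attached, and some are loaded into Argonaute proteins like microRNAs. Trailers (tRF-1) are what RNase Z cuts off behind the mature 3' end of a precursor. The rat brain also holds BC1, a neuronal RNA whose 5' domain derives from an alanine tRNA, as do the ID repeats of the rat genome. The rule by which reads shared between such copies were assigned is not given in the sources used here, so counts of single alanine names are uncertain.

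The listed reads of alanine and cysteine tRNAs in these libraries were mostly short 3' fragments, and long 5' fragments were rare. Of the 50 members, 32 were tRF-3, 11 were 5' fragments (tRF-5), 6 were trailers and 1 was internal (tRF-2). None was a fragment that the files name tiRNA, although 28 listed fragments of other nuclear tRNAs carry that name with a start at base 1. tRF-3 made up 86.4%, 83.6% and 87.2% in saline and 86.8%, 85.9% and 85.02% in nicotine libraries 1, 2 and 3 of the nuclear alanine reads. For cysteine the tRF-3 share was 91.98%, 84.3% and 87.03% in saline and 83.9%, 81.8% and 79.7% in nicotine libraries 1, 2 and 3. The alanine share was nearly level over the 6 libraries, and that of cysteine was highest in saline library 1.

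Taken as 1 pool, the other nuclear tRNAs had a different mix in the same libraries. Glycine fragments, which made up most listed reads, were left out of this comparison. tRF-3 took 85.8% ± 1.33 of the alanine reads and 84.8% ± 4.31 of the cysteine reads, against 12.5% ± 4.40 for the other parents together (SD over 6 libraries). The difference was 73.3 ± 4.18 percentage points for alanine and 72.3 ± 6.83 for cysteine, with the same direction in 6 of 6 libraries. Conversely, 5' fragments of 28 nt or more took 0.124% ± 0.125 of the alanine reads and 2.45% ± 2.10 of the cysteine reads, against 52.7% ± 8.42 for the others. Each of these 4 differences had an exact two-sided paired permutation p of 0.03125 over the 6 libraries, which is the smallest value possible with 6 pairs. With 6 of 6 libraries in the same direction in each, this test could give no other p. Adjusted by Benjamini-Hochberg over 7 such tests, p stayed at 0.03125 in the exact test. The tests were added after the data were seen, and they compare parents within the same libraries. Their p therefore adds nothing to the count of libraries.

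**Figure D1:**
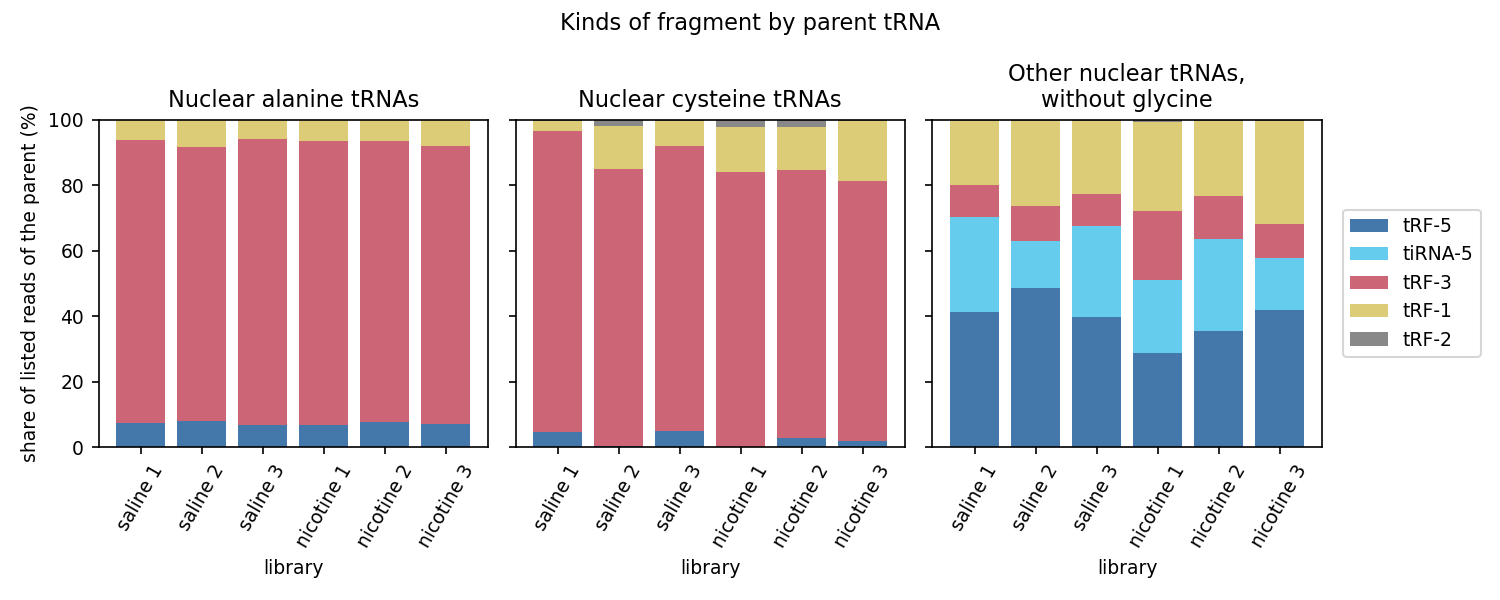
Share of each kind of fragment (vertical axis, % of the listed reads of the parent) in the 6 libraries (horizontal axis) for nuclear alanine tRNAs, nuclear cysteine tRNAs and the other nuclear tRNAs without glycine. The tRF-3 segment fills most of every alanine and cysteine bar and a small part of every bar of the other parents.

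Alanine and cysteine were not alone in this. Among 21 nuclear parents, counting the initiator methionine tRNA apart, alanine ranked 3 and cysteine 4 from the top by their mean tRF-3 share. Tryptophan (100% of 152 reads) and phenylalanine (91.3%) lay above them, and glutamine (76.5%), isoleucine (76.5%) and leucine (73.5%) followed. Long 5' fragments were rare in many parents too. Counted from the lowest share of 5' fragments of 28 nt or more, alanine ranked 8 and cysteine 13 of 21. Arginine, asparagine, isoleucine, elongator methionine, phenylalanine, serine and tryptophan lay below alanine. Glutamate, lysine, valine and histidine, with shares of 93.98%, 97.1%, 59.95% and 70.7%, were high in the pool. Glycine (0.296%), lysine (0.960%) and glutamate (2.79%), with many long 5' fragments, had a small tRF-3 share. Proline, with 76.4% long 5' fragments, had a tRF-3 share of 20.7% ± 18.2 (SD over 6 libraries, 523 reads). The mitochondrial alanine and cysteine tRNAs, which carry other sequences, had 16 listed fragments. Of these, 9 were tRF-5 and 2 were tiRNA-5, and only 3 were tRF-3, with 16 reads of 368.

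**Figure D2:**
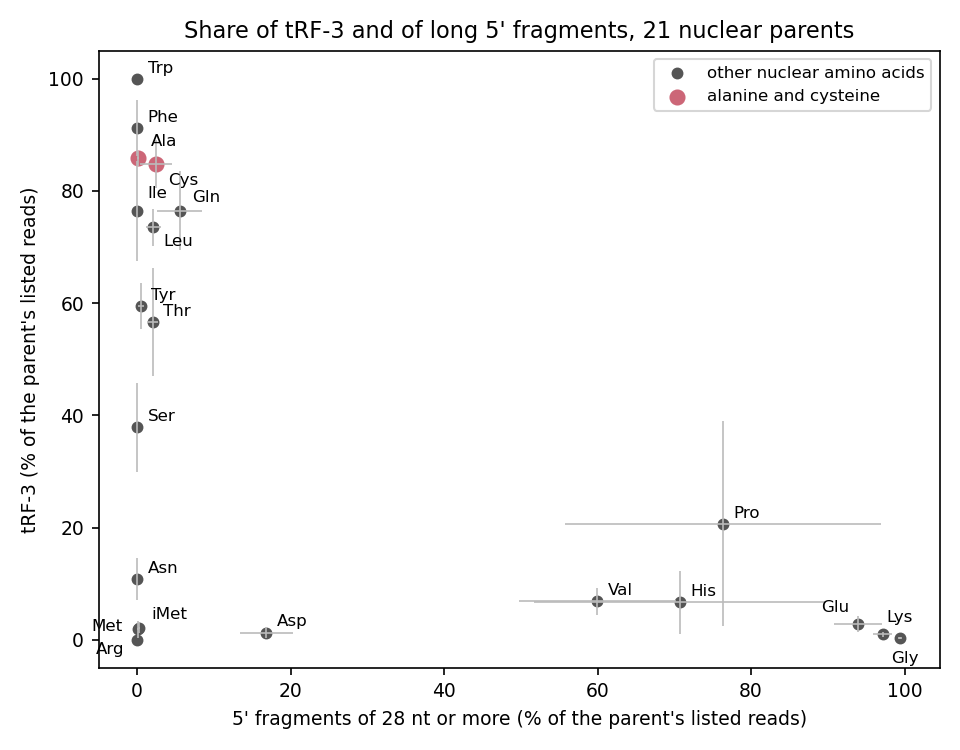
Mean share of tRF-3 (vertical axis, % of the listed reads of the parent) against the mean share of 5' fragments of 28 nt or more (horizontal axis, %) for 21 nuclear parents; grey lines are the SD over 6 libraries. Alanine (85.8% and 0.124%) and cysteine (84.8% and 2.45%) sit at the upper left, and glycine, lysine and glutamate sit at the lower right.

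The 3' fragments of alanine and of cysteine mostly began at different bases. The name of a fragment gives its first and last base in the tRNA, and tRF-3 of both parents end at base 75, or at base 76 for 4 of the Ala-AGC names. Of the 6589 alanine tRF-3 reads, 4845 ran from base 58 to base 75 and had 18 nt. All reads of 18 nt, 72 of which began at base 59, took 74.96% ± 1.45 under saline and 73.6% ± 0.823 under nicotine (SD over 3 libraries each) of the alanine tRF-3 reads. The 22 nt form, which began at base 54, took 12.3% ± 0.793 under saline and 13.3% ± 1.31 under nicotine (SD over 3 libraries each). Of the lengths between, 19 nt took 3.74% ± 0.380 under saline and 4.68% ± 1.11 under nicotine (SD over 3 libraries each), 270 reads in all. Within Ala-AGC alone the 19 nt share was 6.07% ± 1.59 under saline and 7.90% ± 1.58 under nicotine (SD over 3 libraries each). The lengths of 20 and 21 nt held 14 and 29 alanine reads. The alanine reads thus peaked at 18 nt, with a second, lower peak at 22 nt.

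Cysteine tRF-3 mainly began 1 base later, at base 59, with 17 nt. The 17 nt form took 65.8%, 63.4% and 69.2% in saline and 64.3%, 54.2% and 53.3% in nicotine libraries 1, 2 and 3 of the cysteine tRF-3 reads, and the 18 nt form took 33.2%, 34.97% and 27.4% in saline and 34.8%, 40.97% and 40.8% in nicotine libraries 1, 2 and 3. The 17 nt form was the more frequent in 6 of 6 libraries. Of the reads of 17 and 18 nt together, 17 nt took 63.5% ± 5.79 for cysteine, 9.73% ± 0.911 for alanine and 38.1% ± 1.42 for the other nuclear parents without glycine (SD, 6 libraries). Cysteine exceeded alanine by 53.8 ± 5.13 percentage points in 6 of 6 libraries (exact paired permutation p = 0.03125, adjusted p = 0.03125 over the 7 tests). The difference from the other parents was -28.3 ± 1.00 percentage points for alanine and 25.4 ± 4.62 for cysteine, again in 6 of 6 libraries and with the same exact p. Here too the p follows from the 6 of 6 libraries and adds nothing to that count. Single parents among the others lay near either value. The mean 17 nt share was 10.9% for leucine, 12.5% for isoleucine and 12.9% for serine, close to that of alanine. It was 64.1% for valine and 74.7% for phenylalanine, at and above that of cysteine. A 22 nt form was rare for cysteine, at 8 reads in all.

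**Figure D3:**
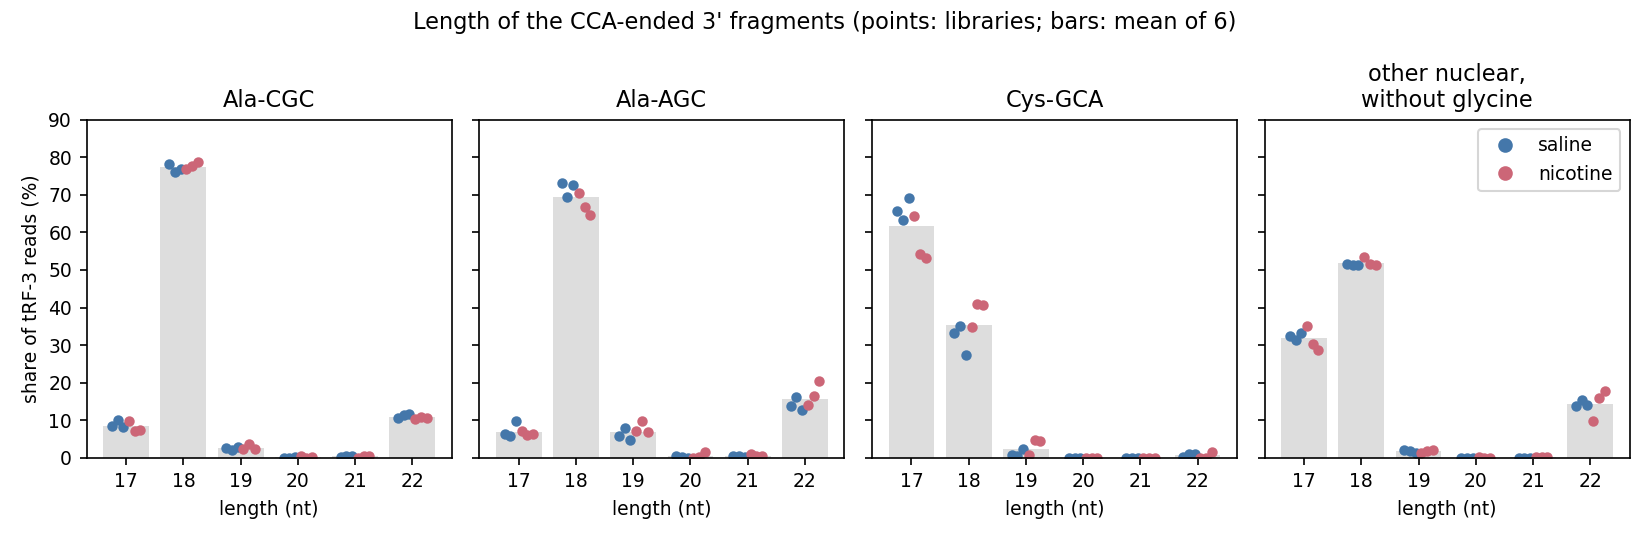
Share of the tRF-3 reads (vertical axis, %) by length (horizontal axis, nt) for Ala-CGC, Ala-AGC, Cys-GCA and the other nuclear parents without glycine; points are libraries and grey bars the mean of 6. The 18 nt form leads for both alanine anticodons and the 17 nt form for cysteine, and this holds in each of the 6 libraries.

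The most abundant member was the 18 nt 3' fragment of Ala-CGC, tRF-58:75-Ala-CGC-1-M5, with 2642, 3419 and 2579.8 CPM in saline libraries 1, 2 and 3 and 4162, 3418 and 2968 CPM in nicotine libraries 1, 2 and 3. Nicotine library 1 was highest and saline library 3 lowest, and the groups overlapped, with a log2 fold change of 0.29 (SE 0.37) and an adjusted p of 0.879 in limma over 586 tested fragments. With TMM rescaling it was -0.0390. Its 17 nt form, tRF-59:75-Ala-CGC-1-M5, had 288, 453 and 272 CPM in saline and 528, 311 and 279.7 CPM in nicotine libraries. The 22 nt form, tRF-54:75-Ala-CGC-1-M3, had 302, 427 and 359 CPM in saline and 495, 433 and 334 CPM in nicotine libraries. In both the groups overlapped, with log2 fold changes of 0.12 (SE 0.39) and 0.21 (SE 0.38).

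Among the Ala-AGC fragments the 18 nt tRF-58:75-Ala-AGC-3-M2 led, with 913, 1282 and 795 CPM in saline and 1387, 1284 and 793 CPM in nicotine libraries. Its log2 fold change was 0.20 (SE 0.38), and saline library 3 and nicotine library 3 were about equally low. The same stretch under another gene name, tRF-58:75-Ala-AGC-1, had 302, 402 and 252 CPM in saline and 639, 401 and 357 CPM in nicotine libraries, highest in nicotine library 1. The long forms tRF-54:75-Ala-AGC-1 and tRF-54:75-Ala-AGC-3 had 101 CPM ± 59.8 and 121 CPM ± 53.9 in saline and 175 CPM ± 49.2 and 155 CPM ± 56.7 under nicotine (SD over 3 libraries each). Neither separated the groups. The 3' ends of alanine tRNAs are alike between genes and anticodons, so the division of reads between these names is uncertain. Of the alanine reads, Ala-CGC names took 61.9% ± 1.94 under saline and 60.3% ± 1.75 under nicotine (SD over 3 libraries each), and Ala-AGC names took 36.96% ± 1.92 under saline and 38.3% ± 2.18 under nicotine (SD over 3 libraries each). RefSeq on the GRCr8 assembly names 6 genes for Ala-CGC, 92 for Ala-AGC, 21 for Ala-TGC and 38 for Cys-GCA. The anticodon name with the most reads thus has the fewest named genes of these 4. Of its 4697 reads, however, 4170 are tRF-3, which do not hold the anticodon, so this is an order of assigned names. RefSeq also names 6 genes for another alanine anticodon, Ala-GGC, and no listed fragment carried that name.

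Both leading cysteine members came from the 3' end. The 17 nt tRF-59:75-Cys-GCA-1-M4 had 523, 751 and 698 CPM in saline libraries 1, 2 and 3 and 815, 638 and 761 CPM in nicotine libraries 1, 2 and 3. The 18 nt tRF-58:75-Cys-GCA-1-M4 had 259, 408 and 276 CPM in saline and 407, 474 and 559 CPM in nicotine libraries. Saline library 2, at 408 CPM, and nicotine library 1, at 407 CPM, nearly tied in the latter, and the other nicotine values lay above all saline values. Their log2 fold changes were 0.18 (SE 0.37) and 0.63 (SE 0.38), with adjusted p of 0.922 and 0.734 in limma. The 19 nt form, tRF-57:75-Cys-GCA-1-M4, had only 2, 1 and 5 reads in saline and 1, 7 and 8 reads in nicotine libraries.

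**Figure D4:**
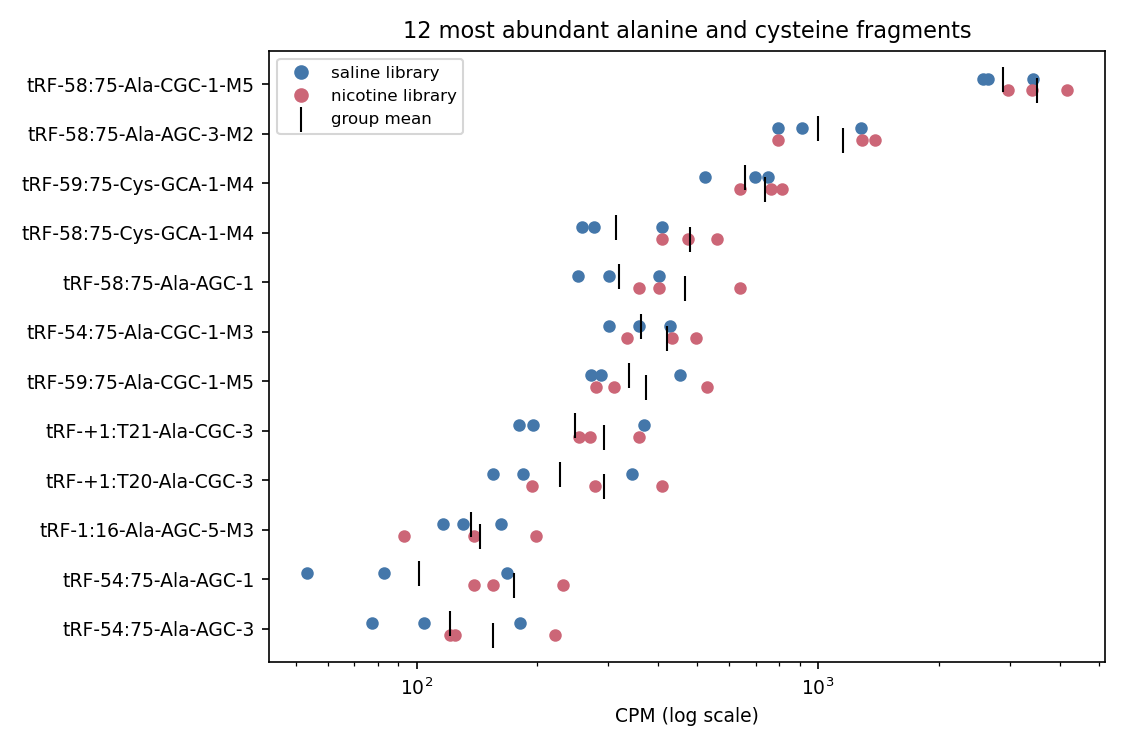
CPM (horizontal axis, log scale) of the 12 alanine and cysteine fragments with the highest mean, 1 row per fragment; points are the 3 saline and 3 nicotine libraries and black ticks the group means. The groups overlap in every row, and the leading fragment of Ala-CGC spans 2579.8 to 4162 CPM.

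Trailers were listed for 1 alanine and 1 cysteine gene name. Both main alanine trailers, of 21 nt and 20 nt, came from Ala-CGC-3. tRF-+1:T21-Ala-CGC-3 had 195, 369 and 179 CPM in saline and 253, 269.9 and 357 CPM in nicotine libraries. tRF-+1:T20-Ala-CGC-3 had 184, 343 and 155 CPM in saline and 407, 278 and 194 CPM in nicotine libraries. Saline library 2 was the highest of all for the longer one and lay among the nicotine values for the other, with log2 fold changes of 0.31 (SE 0.40) and 0.39 (SE 0.41). A 15 nt trailer, tRF-+1:T15-Ala-CGC-3, had 0, 4 and 3 reads in saline and 0, 0 and 1 reads in nicotine libraries.

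The cysteine trailers, all named Cys-GCA-5-20, include the member with the smallest p-value of the 50. tRF-+1:T16-Cys-GCA-5-20 had 5.34, 97.1 and 24.2 CPM in saline libraries 1, 2 and 3 and 88.1, 98.1 and 202 CPM in nicotine libraries 1, 2 and 3, that is 2, 15 and 5 reads in saline and 8, 12 and 26 reads in nicotine libraries. Saline library 1, with the largest total, held 2 reads, while saline library 2 lay within the nicotine range. The log2 fold change was 2.28 (SE 0.79), with an unadjusted p of 0.0106 and an adjusted p of 0.657 in limma. With a library left out it was 1.29 to 3.26. It passed only without saline library 2, with an adjusted p of 0.0446, and the adjusted p was 0.0446 to 0.997 over the 14 alternatives. The 15 nt form tRF-+1:T15-Cys-GCA-5-20 had 18.7, 90.7 and 58.2 CPM in saline and 110.1, 81.8 and 101 CPM in nicotine libraries, and the 17 nt form had 2 reads in saline and 5 in nicotine libraries. Summed, the cysteine trailers had 26.7, 188 and 87.3 CPM in saline and 209, 188 and 326 CPM in nicotine libraries. The groups did not overlap, but saline library 2 and nicotine library 2 were nearly equal, at 29 and 23 reads. With TMM rescaling these sums overlapped. Trailers took 3.09%, 13.4% and 7.53% in saline and 13.9%, 13.1% and 18.2% in nicotine libraries 1, 2 and 3 of the cysteine reads, and these shares overlapped. Their 95% Wilson intervals were 1.68 to 5.59% in saline library 1 and 13.7 to 23.7% in nicotine library 3, the extremes. In saline library 2 the interval was 9.47 to 18.5%. It overlapped those of nicotine library 1 (9.06 to 20.6%) and nicotine library 2 (8.87 to 18.8%). The tRF-3 share of cysteine was lower in the 3 nicotine libraries without overlap, but 84.3% in saline library 2 (95% Wilson interval 78.9 to 88.6) and 83.9% in nicotine library 1 (76.9 to 89.1) agree within counting error.

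The 5' members were short and mostly of Ala-AGC. Its 8 tRF-5 had 14 to 24 nt, and none reached the anticodon loop. The most abundant, tRF-1:16-Ala-AGC-5-M3, had 131, 162 and 116 CPM in saline and 198, 139 and 93.2 CPM in nicotine libraries, with a log2 fold change of 0.02 (SE 0.45). Nicotine libraries 1 and 3 were its highest and lowest values. Ala-TGC had a 16 nt 5' fragment, tRF-1:16-Ala-TGC-4, with 0, 6 and 2 reads in saline and 1, 1 and 1 reads in nicotine libraries. Its 30 nt form, tRF-1:30-Ala-TGC-4, was the only alanine 5' fragment of 28 nt or more, and it had 0, 2 and 2 reads in saline and 0, 1 and 3 reads in nicotine libraries. For cysteine the corresponding fragment was the 32 nt tRF-1:32-Cys-GCA-1-M3, with 15, 1 and 12 reads in saline and 0, 5 and 4 reads in nicotine libraries. It was at 0 in nicotine library 1 and at 1 read in saline library 2, so both groups held a low library, and the log2 fold change of -1.25 (SE 1.29) rests on few reads. Long 5' fragments of both parents together held 45 reads in the 6 libraries. The bases of these fragments were not used here, and a terminal run of G was therefore not looked for. The single internal fragment, tRF-27:40-Cys-GCA-1-M14, spans the anticodon and had 1, 4 and 1 reads in saline and 3, 4 and 1 reads in nicotine libraries.

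The files list fragments that reached about 20 CPM in some library (lowest maximum 21.3 CPM), so a rarer long 5' fragment would not be listed. Of the 50 members 35 had reads in all 6 libraries, 16 had at least 100 reads in all and 16 had fewer than 20. No molecular identifiers are named in the protocols, so the intervals given here hold counting error and no other.

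Nicotine and saline libraries were then compared over all listed fragments. All 50 members passed the filter of at least 1 CPM in at least 3 libraries. None of them passed an adjusted p of 0.05 in limma, nor did any of the 586 tested fragments (0%). At an unadjusted p under 0.05 there were 2 members (4%), both higher in nicotine, against 7% of all tested fragments, 5.12% higher and 1.88% lower. With edgeR and DESeq2 on the recovered reads 0 of 586 passed as well, with 32 and 18 at an unadjusted p under 0.05. The second such member was the 19 nt 3' fragment tRF-57:75-Ala-AGC-3, with 58.7, 142 and 29.1 CPM in saline and 187, 213 and 109 CPM in nicotine libraries. Its log2 fold change was 1.37 (SE 0.52), with an adjusted p of 0.657. Saline library 2 lay between its nicotine values.

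Of the members 40 of 50 had a positive log2 fold change, with a median of 0.39, against 64.5% and a median of 0.28 over all tested fragments. The 2 lists differ in their mix of kinds. Positive were 26 of 32 member tRF-3 and 94 of 108 of other nuclear tRNAs. For tRF-5 it was 8 of 11 and 71 of 171, and for trailers 5 of 6 and 67 of 98. Rescaling by TMM factors took the medians of members and of all tested fragments to 0.10 and -0.02, a shift of about the same size for both. The median of the members was 0.63 without saline library 2, over the 49 that still passed the filter, and 0.26 without nicotine library 1. The groups did not overlap for 5 members (10%), all higher in nicotine, where 14.2% of all tested fragments did not overlap, 12.6% higher and 1.54% lower. These were tRF-54:75-Ala-AGC-2, tRF-58:75-Ala-TGC-4, tRF-54:75-Ala-TGC-3, tRF-58:75-Cys-GCA-10-M8 and the 17 nt cysteine trailer. The last of these, tRF-58:75-Cys-GCA-10-M8 and tRF-54:75-Ala-TGC-3 reached at most 4.85, 6.48 and 12.95 CPM in saline. They came above the lowest listed maximum of 21.3 CPM only in nicotine libraries, where 1 read was worth more CPM. Their direction thus follows in part from the listing, also under the scalings below. After TMM rescaling 4 members were higher without overlap (6.31% of all), and the 17 nt tRF-59:75-Cys-GCA-1-M4 was lower (3.92% of all). Scaled to the listed reads, 12 were higher (18.6% of all) and 0 lower (1.02% of all).

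The Ala-TGC fragments without overlap were read rarely. tRF-58:75-Ala-TGC-4 had 34.7, 38.9 and 29.1 CPM in saline and 66.1, 49.1 and 54.4 CPM in nicotine libraries (adjusted p = 0.800 in limma). The 22 nt tRF-54:75-Ala-TGC-3 had 4, 2 and 1 reads in saline and 2, 4 and 5 reads in nicotine libraries, with a log2 fold change of 1.67 (SE 0.91). The library totals behind these reads differ, so CPM were higher in nicotine although read numbers were similar. On the lower side the members with the smallest p held few reads and overlapped. tRF-57:75-Ala-AGC-2 had 6, 6 and 6 reads in saline and 2, 3 and 0 reads in nicotine libraries, and tRF-60:76-Ala-AGC-4 had 13, 4 and 11 reads in saline and 4, 8 and 0 reads in nicotine libraries. tRF-54:75-Cys-GCA-1-M4 had 1, 2 and 2 reads in saline and 0, 0 and 3 reads in nicotine libraries. The pair from Ala-AGC was at 0 in nicotine library 3, and without that library the log2 fold changes went from -1.71 to -0.17 and from -1.37 to 0.55.

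The members were also compared by kind. The median log2 fold change was 0.43 for the 32 member tRF-3 and 0.48 for 108 tested tRF-3 of other nuclear tRNAs. For trailers it was 0.72 for 6 members and 0.45 for 98 others, and for tRF-5 it was 0.19 for 11 members and -0.15 for 171 others. These medians are descriptions of unequal lists, and TMM rescaling took them to 0.11 and 0.15, to 0.40 and 0.14, and to -0.02 and -0.47. Single libraries moved them as well. The median of the member trailers was 0.34 without saline library 1, 1.52 without saline library 2 and 1.20 without saline library 3, the last pair over the 5 that still passed the filter. That of the member tRF-5 was -0.061 without saline library 1, -0.086 without saline library 3, 0.01 without nicotine library 2, 0.68 without saline library 2 and 0.30 without nicotine library 3, so its direction did not hold. The member tRF-3 had 0.24 without nicotine library 1, and the other nuclear tRF-3 had 0.25, over the 105 that still passed the filter. As a stand-in for blood in the tissue, 65 5' fragments of tRNAs whose 5' pieces are known from blood plasma summed to 96261 to 105047 CPM in saline and 79502 to 92630.1 CPM in nicotine libraries, and their part in these results was not tested.

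The members were also summed per anticodon over all kinds. Ala-CGC totalled 3762, 5239 and 3705 CPM in saline and 6066, 4948 and 4336 CPM in nicotine libraries. Ala-AGC totalled 2276, 3374 and 2022 CPM in saline and 3864, 3410.2 and 2518 CPM in nicotine libraries. In both, saline library 2 lay among the nicotine values, with log2 fold changes of 0.28 (SE 0.32) and 0.36 (SE 0.32), of which the first turned to -0.0471 with TMM rescaling and both were negative with edgeR and DESeq2. Ala-TGC totalled 53.4, 117 and 72.7 CPM in saline and 99.1, 106 and 148 CPM in nicotine libraries, with 0.59 (SE 0.56). Cys-GCA totalled 865, 1405 and 1159 CPM in saline and 1508, 1439 and 1795 CPM in nicotine libraries, the only one of the 4 whose groups did not overlap, with 0.49 (SE 0.32). Its closest libraries were saline 2 and nicotine 2, and with TMM rescaling its groups overlapped. Over all 66 anticodon totals 10.6% did not overlap, 9.09% higher and 1.52% lower, and 83.3% had a positive log2 fold change, as did all 4 of these. None of the 4 had an unadjusted p under 0.05, against 7.58% of the totals, 6.06% higher and 1.52% lower, and 0% passed an adjusted p of 0.05 in limma. The adjusted p of the 4 were 0.536, 0.434, 0.486 and 0.390. By assigned name, the levels kept the order Ala-CGC, Ala-AGC, Cys-GCA and Ala-TGC in all 6 libraries.

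Summed by kind and anticodon the members formed 10 families, of which 9 had a positive log2 fold change, against 75% of the 172 tested families. None passed an adjusted p of 0.05 in limma (0% of all), and 1 had an unadjusted p under 0.05, against 8.14% of all. Without overlap 2 were higher in nicotine, against 16.3% of all families, 15.7% higher and 0.581% lower. They were the trailers of Cys-GCA, with a log2 fold change of 1.61 (SE 0.57, adjusted p = 0.542), and tRF-3 of Ala-TGC, with 0.76 (SE 0.48, adjusted p = 0.542). With TMM rescaling the groups overlapped in both. The value for the trailers of Cys-GCA was 0.87 without saline library 1 and 2.25 without saline library 2. The 3 large tRF-3 families lay close together, with 0.27 (SE 0.30) for Ala-CGC, 0.39 (SE 0.32) for Ala-AGC and 0.39 (SE 0.29) for Cys-GCA. Trailers of Ala-CGC had 0.35 (SE 0.33) and tRF-5 of Ala-AGC had 0.27 (SE 0.32). All 5 of these intervals of 1 SE hold the median of all fragments, and TMM rescaling, which lowered that median to -0.02, turned tRF-3 of Ala-CGC to -0.0537 and tRF-5 of Ala-AGC to -0.0565. With edgeR all 5 were negative, at -0.15 for tRF-3 of Ala-CGC, -0.0372 for tRF-3 of Ala-AGC, -0.0148 for tRF-3 of Cys-GCA, -0.12 for trailers of Ala-CGC and -0.16 for tRF-5 of Ala-AGC, so a positive direction did not hold for them. With DESeq2 the 4 alanine families were negative too. With edgeR and DESeq2 0 families passed as well, with 7 and 6 at an unadjusted p under 0.05.

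**Figure D5:**
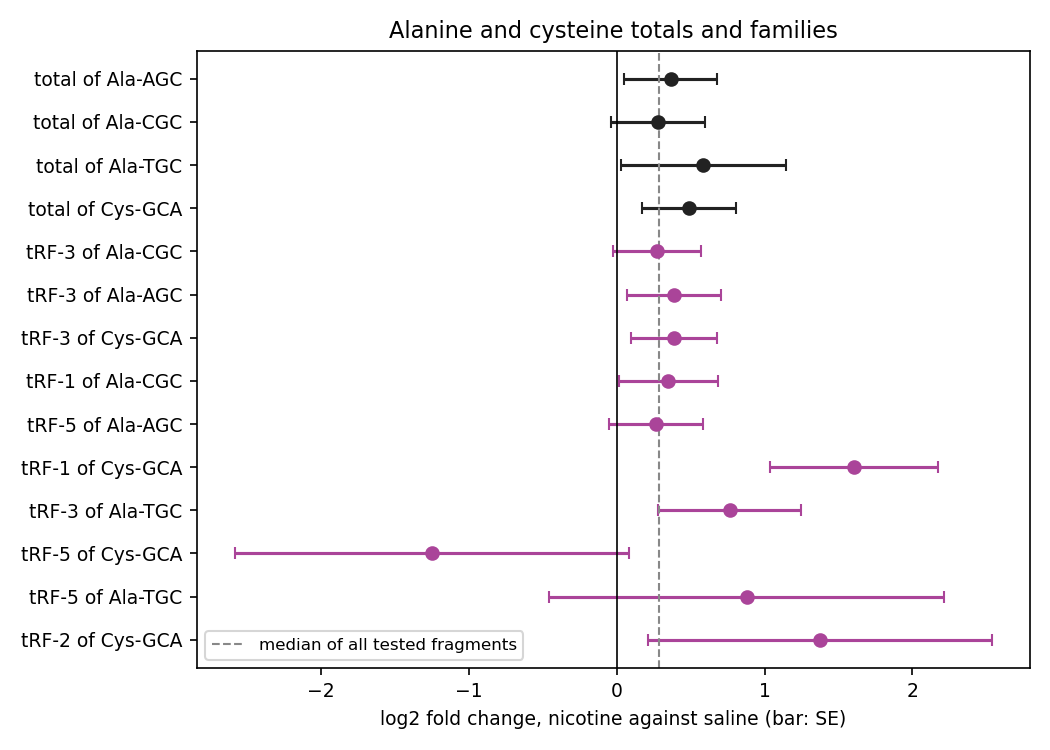
Log2 fold change of nicotine against saline (horizontal axis) with its SE for the 4 anticodon totals and the 10 families of kind and anticodon; the dashed line is the median of all tested fragments, 0.28. The cysteine trailers lie farthest from 0, at 1.61, no adjusted p passed 0.05, and with TMM rescaling tRF-3 of Ala-CGC, tRF-5 of Ala-AGC and the total of Ala-CGC fall just below 0, as more of them do with edgeR and DESeq2.

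As a share of the listed reads, nuclear alanine fragments took 0.886%, 1.44% and 1.10% in saline and 2.04%, 1.48% and 1.48% in nicotine libraries 1, 2 and 3, and cysteine fragments took 0.126%, 0.231% and 0.220% in saline and 0.307%, 0.251% and 0.381% in nicotine libraries 1, 2 and 3. All nicotine shares lay above all saline shares, but the margins were small. Scaled to the listed reads, 18.6% of all tested fragments were higher without overlap and 1.02% lower. How many other parents did so was not counted. For alanine, saline library 2 had 1.44% (95% Wilson interval 1.36 to 1.52) and nicotine library 2 had 1.48% (1.39 to 1.57). For cysteine, saline library 2 had 0.231% (0.203 to 0.264) and nicotine library 2 had 0.251% (0.216 to 0.291), so these intervals overlapped as well. With glycine fragments left out of the denominator alanine took 5.58% ± 1.09 under saline and 6.37% ± 1.20 under nicotine (SD over 3 libraries each), with overlap. Cysteine took 0.920% ± 0.140 under saline and 1.18% ± 0.0987 under nicotine (SD over 3 libraries each), still without overlap. Other parents were not counted at this denominator either. Its closest libraries were saline library 2 at 1.07% and nicotine library 1 at 1.11%.

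The mix of alanine kinds and lengths did not separate the groups. tRF-3 took 85.7% ± 1.89 under saline and 85.9% ± 0.906 under nicotine (SD over 3 libraries each), and tRF-5 took 7.36% ± 0.583 under saline and 7.07% ± 0.528 under nicotine (SD over 3 libraries each). Trailers took 6.90% ± 1.35 under saline and 7.02% ± 0.846 under nicotine (SD over 3 libraries each) of the alanine reads. For cysteine, the 17 nt share of the reads of 17 and 18 nt was 67.5% ± 3.72 under saline and 59.5% ± 4.69 under nicotine (SD over 3 libraries each), with overlap. Alanine supplied 26.1% to 34.7% of all nuclear tRF-3 reads and cysteine 3.80% to 7.002%, and both overlapped between the groups.

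Among 94 other families with a mean of at least 100 CPM, the likeness to the leading alanine and cysteine families was measured. The measure was the root mean square difference of log2(CPM + 1) over the 6 libraries, after each family was centred on its own mean. Closest to tRF-3 of Ala-CGC were tRF-3 of Thr-TGT (0.103), tRF-3 of Ala-AGC (0.122) and tRF-3 of Gly-CCC (0.124), against a median of 0.413 over the 94. Closest to tRF-3 of Cys-GCA were tRF-5 of Asp-GTC (0.0685), mitochondrial tiRNA-5 of Gln-TTG (0.144) and tRF-3 of Glu-TTC (0.166), against a median of 0.396. All 3 families nearest to the alanine family were thus tRF-3, and the families share library and total.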

How the data were processed

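Small RNA libraries from total RNA of rat hippocampus were made by ligation of adapters to both ends, reverse transcription, PCR and gel selection, and were read on an Illumina NextSeq instrument (per the labels' protocols). FastQC, cutadapt and Bowtie stand in the submitters' processing notes, with no version. The sources used here name neither build nor tRNA annotation. As deposited, values are CPM, by the headers of 4 files and by the values of the other 2. Each was a whole multiple of 1 read (100% within 0.001 reads), so reads and totals were recovered. Listed fragments held 47.1% to 68.8% of the totals.

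Kinds were assigned here from position, length and name. log2(CPM + 1) was tested with limma 3.58.1 (trend, robust) in R 4.3.3, two-sided, with Benjamini-Hochberg adjustment over all fragments, families or anticodon totals that reached 1 CPM in 3 or more libraries. edgeR 4.0.16 and DESeq2 1.42.0 on the recovered reads, TMM rescaling, other pseudocounts and filters, a replicate block and leaving out each library were alternatives. The limma test was run on simulated reads with large fold changes and a fixed dispersion. This gives no measure of its power or error at the smaller changes seen here. Paired comparisons of mixes were exact sign-flip permutation tests. Named members were the 12 with the highest mean, the 5 with the smallest p per direction and the most abundant of each kind and anticodon, and 5 further members are named for their groups or lengths, chosen after their values were seen. Members and lists were chosen with earlier results of these data known. RefSeq symbols on GRCr8 were found for all 4 anticodons, by name only. No 2 replicates agreed within sampling noise (chi-square per degree of freedom 11.9 to 24.4). The labels number the rats, which are taken as separate animals.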

Additional observations from a re-analysis of the deposited data

How the results depend on the processing

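None of the 24 named fragments, 10 families and 4 anticodon totals passed an adjusted p of 0.05 in any fit run, except the 16 nt cysteine trailer without saline library 2 (adjusted p = 0.0446). Over all listed fragments 0 passed in limma, and with a library left out 0 to 5 did, 5 of them without nicotine library 3 and none of these a member. Of the families 0 passed, and with a library left out 0 to 2. The anticodon totals gave 0 calls in every fit. The replicate block called 1 fragment, of a histidine tRNA, and no member, and gave the 16 nt cysteine trailer an adjusted p of 0.0627. Same-numbered saline and nicotine libraries deviated together with correlations of 0.0867, 0.109 and 0.161, each the best of its library, which is a hint from the data and not from the design. As 1 of them is below 0.1, the numbers were not taken as pairs. With TMM rescaling the log2 fold change turned to -0.0390 for tRF-58:75-Ala-CGC-1-M5, -0.12 for tRF-58:75-Ala-AGC-3-M2, -0.15 for tRF-59:75-Cys-GCA-1-M4, -0.11 for tRF-54:75-Ala-CGC-1-M3, -0.20 for tRF-59:75-Ala-CGC-1-M5, -0.0180 for tRF-+1:T21-Ala-CGC-3, -0.30 for tRF-1:16-Ala-AGC-5-M3, -0.0537 for the family tRF-3 of Ala-CGC, -0.0565 for the family tRF-5 of Ala-AGC and -0.0471 for the total of Ala-CGC. With edgeR on the recovered reads the log2 fold change turned to -0.10 for tRF-58:75-Ala-CGC-1-M5, -0.17 for tRF-58:75-Ala-AGC-3-M2, -0.22 for tRF-59:75-Cys-GCA-1-M4, -0.17 for tRF-54:75-Ala-CGC-1-M3, -0.25 for tRF-59:75-Ala-CGC-1-M5, -0.0835 for tRF-+1:T21-Ala-CGC-3, -0.00649 for tRF-+1:T20-Ala-CGC-3, -0.35 for tRF-1:16-Ala-AGC-5-M3, -0.81 for tRF-1:16-Ala-TGC-4, -0.15 for the family tRF-3 of Ala-CGC, -0.0372 for the family tRF-3 of Ala-AGC, -0.0148 for the family tRF-3 of Cys-GCA, -0.12 for the family tRF-1 of Ala-CGC, -0.16 for the family tRF-5 of Ala-AGC, -0.31 for the family tRF-5 of Ala-TGC, -0.0551 for the total of Ala-AGC and -0.15 for the total of Ala-CGC. With DESeq2 the log2 fold change turned to -0.0434 for tRF-58:75-Ala-CGC-1-M5, -0.11 for tRF-58:75-Ala-AGC-3-M2, -0.16 for tRF-59:75-Cys-GCA-1-M4, -0.11 for tRF-54:75-Ala-CGC-1-M3, -0.19 for tRF-59:75-Ala-CGC-1-M5, -0.0406 for tRF-+1:T21-Ala-CGC-3, -0.28 for tRF-1:16-Ala-AGC-5-M3, -0.97 for tRF-1:16-Ala-TGC-4, -0.13 for the family tRF-3 of Ala-CGC, -0.0189 for the family tRF-3 of Ala-AGC, -0.10 for the family tRF-1 of Ala-CGC, -0.14 for the family tRF-5 of Ala-AGC, -0.45 for the family tRF-5 of Ala-TGC, -0.0803 for the total of Ala-AGC and -0.17 for the total of Ala-CGC. At a pseudocount of 10 CPM the log2 fold change turned to -0.17 for tRF-1:16-Ala-TGC-4. With a library left out it ranged across 0, from -0.80 to 2.06 for the family tRF-5 of Ala-TGC, from -2.21 to 0.48 for the family tRF-5 of Cys-GCA, from -0.24 to 0.30 for tRF-1:16-Ala-AGC-5-M3, from -1.06 to 1.60 for tRF-1:16-Ala-TGC-4, from -2.21 to 0.48 for tRF-1:32-Cys-GCA-1-M3, from -0.16 to 0.36 for tRF-59:75-Ala-CGC-1-M5, from -2.48 to 0.55 for tRF-60:76-Ala-AGC-4. Of the lists by anticodon, the median of the 10 cysteine members went from 1.21 to 0.64 without saline library 1. That of the 5 Ala-TGC members went from 0.39 to -1.01 without saline library 1 and to 0.89 without saline library 2 and 0.65 without saline library 3. That of the 25 Ala-AGC members went to 0.18 without nicotine library 1 and 0.62 without saline library 2. That of the 10 Ala-CGC members, 0.26, went to 0.14 without nicotine library 1, 0.16 without saline library 3 and 0.42 without saline library 2. The last pair of values is over the 9 that still passed the filter. The difference in share of the listed reads, 0.527 percentage points for alanine and 0.121 for cysteine, was 0.162 and 0.0438 as a share of the total behind the CPM, and that of cysteine was 0.26 with glycine left out. The cause of these changes was not tested. The paired differences in mix had the same direction in 6 of 6 libraries, so leaving out 1 library could not turn them. In the exact test 5 pairs cannot give a p below 0.0625. Fragments with few reads limit what these read totals can show.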
